A study of Mus musculus with 13 samples.

Results

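Of 53008 regions of the LβT2 genome with a peak of histone H3 acetylated at lysine 27 (H3K27ac), 3599 had a peak in both vehicle H3K27ac libraries and in neither library from cells given activin A for 1 h. These 3599 regions are called lost here. They were found by joining the peaks of the 4 H3K27ac lists wherever peaks shared at least 1 bp, and they make up 6.79% of the joined regions. For comparison, 3094 regions (5.84%) had the opposite pattern and are called gained, and 24356 (45.9%) had a peak in all 4 libraries and are called constant. The peak calls themselves chose the lost regions, so the lost regions were selected on the presence of H3K27ac peaks and their loss is no finding. A lost region is one where no peak was called with activin, and the acetylation that remained below the calling threshold is not in the peak lists. With each library left out in turn, the same rule on the remaining 3 gave 7193 regions without vehicle library 1, 7581 without vehicle library 2, 5929 without activin library 1 and 4249 without activin library 2.

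LβT2 is a mouse cell line with features of pituitary gonadotropes, which secrete luteinising and follicle-stimulating hormone. All groups came from LβT2 cells stably transduced with a lentiviral cassette that expressed GFP constitutively and a FLAG-tagged mouse FOXL2 (FLAG-mFoxL2) under doxycycline control, and all groups, vehicle included, had received doxycycline for 48 h and rested in 2% serum for 2 h. Vehicle or activin A (1 nM) was then present for 1 h, and the cells were fixed with 1% formaldehyde. Chromatin was precipitated for H3K27ac, for FLAG-FOXL2 (called FOXL2 below, and not the cells' own FOXL2) and for SMAD2/3, with 2 vehicle and 2 activin samples for each antibody, each pooled from 3 plates. The labels do not say whether the duplicates came from separate cultures, so the spread between them may be technical, and a Protein-A control sample was not analysed here.

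Acetylation of H3K27 is laid down by the acetyltransferases p300 and CBP at active promoters and enhancers, and it is removed by histone deacetylases. Activin binds receptor kinases that phosphorylate SMAD2 and SMAD3, which then enter the nucleus and bind DNA with partner factors. FOXL2 is a forkhead factor that marks gonadotropes in the pituitary and partners with SMAD proteins at the gene of the follicle-stimulating hormone β subunit, Fshb. The H3K27ac lists held between 38995 and 41763 peaks, the FOXL2 lists between 83834 and 97701, and the SMAD2/3 lists 605 and 144 with vehicle, then 7784 and 5970 with activin. Read depth is unknown from peak lists. As a check of the labelled cell type, promoter windows of 6 of 7 gonadotrope markers in the RefSeq table (Cga, Lhb, Gnrhr, Foxl2, Gata2, Lhx3) overlapped an H3K27ac peak in all 4 libraries and Fshb did in none, while 0 of 7 markers of other pituitary cells (Prl, Pomc, Tshb, Pou1f1, Tbx19, Sox2, Crhr1) had a peak there in any library.

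Most lost regions lay far from gene starts, where no sequence was at hand, so the sequences shown are promoters that fell wholly inside a lost region. RefSeq promoter windows (GRCm38.p6, 250 bases before to 50 after a start) overlapped a lost region and no constant region in 106 cases from 102 genes, and 25 windows lay wholly inside it. The windows below were chosen as the strongest one (Slc22a30), the one next in strength, which holds SMAD motifs (Mib2), the strongest whose window held a FOXL2 peak in every FOXL2 library (Uchl4), and one with a forkhead motif (Slc7a11). Capitals mark motif matches on either strand, and each sequence runs 5′ to 3′ along the gene's strand.
Slc22a30, chr19:8405056-8405355, minus strand: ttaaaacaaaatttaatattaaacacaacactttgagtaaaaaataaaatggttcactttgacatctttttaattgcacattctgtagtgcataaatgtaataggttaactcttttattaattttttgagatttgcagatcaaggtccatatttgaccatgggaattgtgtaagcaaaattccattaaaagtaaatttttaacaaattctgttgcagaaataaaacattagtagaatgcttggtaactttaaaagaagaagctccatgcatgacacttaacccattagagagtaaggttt
Mib2, chr4:155669170-155669469, minus strand: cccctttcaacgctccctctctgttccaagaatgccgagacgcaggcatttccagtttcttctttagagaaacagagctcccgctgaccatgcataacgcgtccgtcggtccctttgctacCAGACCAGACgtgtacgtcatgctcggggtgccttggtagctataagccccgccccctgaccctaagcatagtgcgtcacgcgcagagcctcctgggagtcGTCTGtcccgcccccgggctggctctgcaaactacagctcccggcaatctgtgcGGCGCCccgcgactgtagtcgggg
Uchl4, chr9:64234951-64235250, plus strand: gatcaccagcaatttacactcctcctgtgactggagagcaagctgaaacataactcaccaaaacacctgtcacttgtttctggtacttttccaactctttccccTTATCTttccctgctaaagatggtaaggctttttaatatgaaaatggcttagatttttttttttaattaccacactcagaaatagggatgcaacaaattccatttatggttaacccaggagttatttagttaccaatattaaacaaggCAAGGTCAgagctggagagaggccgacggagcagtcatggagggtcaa
Slc7a11, chr3:50443564-50443863, minus strand: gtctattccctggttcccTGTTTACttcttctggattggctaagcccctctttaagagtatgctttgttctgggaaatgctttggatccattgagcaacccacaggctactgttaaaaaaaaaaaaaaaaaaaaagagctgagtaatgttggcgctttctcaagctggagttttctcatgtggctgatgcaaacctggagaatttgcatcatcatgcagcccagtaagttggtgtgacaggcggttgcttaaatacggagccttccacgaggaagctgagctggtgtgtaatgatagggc

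Slc22a30 encodes a membrane transporter of the organic anion family, and its window held no match to any of the 12 motifs searched. The lost region around it, chr19:8403692-8406104, had a −log10 q of 6.15 and 7.66 in the 2 vehicle libraries. Mib2 encodes a ubiquitin ligase that acts on Notch ligands. Its window held 3 SMAD boxes (CAGAC), beginning at bases 122, 127 and 223, and a GC-rich SMAD site (GGCGCC) at base 277, and the lost region did not have a SMAD2/3 peak in both activin libraries. Uchl4, a ubiquitin hydrolase gene, had an NR5A motif (CAAGGTCA) at base 253 and a GATA motif (AGATAA) at base 105. Slc7a11, which encodes the cystine and glutamate exchanger, had a forkhead motif (TGTTTAC) at base 19, and no FOXL2 peak overlapped its window.

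Motif matches over the 106 windows are a description of letters in 300 bases. SMAD boxes stood in 43.4% of them, against 49.6% of all 32851 RefSeq windows and 47.6% of the 8841 windows in constant regions. The GC-rich SMAD site stood in 12.3% of the lost windows, 11.9% of all windows and 21.7% of windows in constant regions. The forkhead motif stood in 1.89% of the lost windows and 3.65% of all, which is 2 windows among the 106. The FOXL2 element GTCAAGG, stood in 3.77% and 3.18%. GATA motifs stood in 13.2% of lost windows, 11.2% of all and 6.04% of windows in constant regions. The other motifs were AP-1 (TGANTCA; 3.77% of lost and 7.81% of all windows), NR5A (1.89% and 1.56%), NR4A (AAAGGTCA; 0 windows and 1.51%), CRE (TGACGTCA; 0.943% and 1.79%), PITX (TAATCC; 7.55% and 7.06%), the E-box CAGCTG (13.2% and 16.3%) and the palindromic SMAD site GTCTAGAC (0.943% and 0.213%). The palindromic site and the SMAD box share the letters AGAC, the NR5A and NR4A motifs share AAGGTCA, and the FOXL2 element ends in CAAGG, with which the NR5A motif begins. Median GC content was 55.0% in the lost windows, 61.0% in windows of constant regions and 52.7% in all windows.

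Lost regions were narrow and weak with vehicle. Their median width was 561 bp (quartiles 394 and 843 bp), close to the 615 bp of gained regions, whereas constant regions had a median of 1657 bp. The strongest peak of a lost region had a median −log10 q of 2.62 in vehicle library 1 and 2.52 in vehicle library 2, against 8.31 and 7.41 at constant regions. The authors' fold enrichment had medians of 2.98 and 2.85 at lost regions and 4.37 and 4.06 at constant regions. In both vehicle libraries, 1985 lost regions (55.2%) reached a −log10 q of 2, and 159 (4.42%) reached 5. Gained regions were alike in this, with 57.0% at 2 and 4.95% at 5 in both activin libraries. These values come from the measure that chose the regions and are given as a description.

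**Figure D1:**
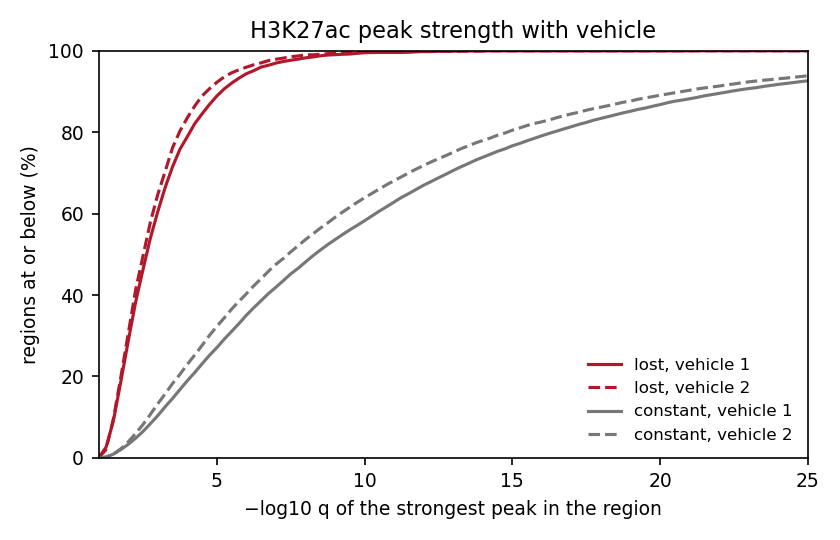
Cumulative share of H3K27ac regions (vertical axis, %) whose strongest vehicle peak had a −log10 q at or below the value on the horizontal axis, for lost (red) and constant (grey) regions in vehicle library 1 (solid) and 2 (dashed); the axis ends at 25. The lost curves climb far to the left of the constant ones in both libraries, with medians of 2.62 and 2.52 against 8.31 and 7.41.

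The edge of the rule ran through weak peaks. The members with the lowest vehicle −log10 q were an intron of Crtac1 (1.0 and 1.5), a site nearest Cox8c (1.02 and 2.26) and an exon of Hace1 (1.57 and 1.03). Just outside, a region had both vehicle peaks and 1 activin peak. The weakest such activin peaks were nearest Chst9 (vehicle 3.89 and 3.27), Pdlim1 (vehicle 1.60 and 1.78) and Gnb4 (vehicle 1.58 and 1.25). There were 2980 regions with both vehicle peaks and 1 activin peak, and the median −log10 q of that activin peak was 2.22.

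Lost regions lay mainly in introns and between genes. By the deposited annotation, 1802 (50.1%, 95% Wilson interval 48.4 to 51.7) were intronic, 1324 (36.8%, 35.2 to 38.4) intergenic, 244 (6.78%, 6.0 to 7.65) at promoters, 117 (3.25%) at transcript ends and 112 (3.11%) exonic. Promoters made up 4.46% of gained regions and 27.7% of constant ones. The intergenic share was 30.3% of gained and 22.8% of constant regions. Wilson intervals cover counting error only, and neighbouring regions are not independent. The median distance from a lost region to the nearest start was 21.1 kb, against 17.1 kb for gained and 6.96 kb for constant regions, and 520 lost regions (14.4%) lay more than 100 kb away, against 8.18% and 5.62%. Bodies of RefSeq protein-coding genes held 57.2% of the lost regions (55.6 to 58.8), 66.9% of the gained (65.2 to 68.5) and 65.2% of the constant ones.

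**Figure D2:**
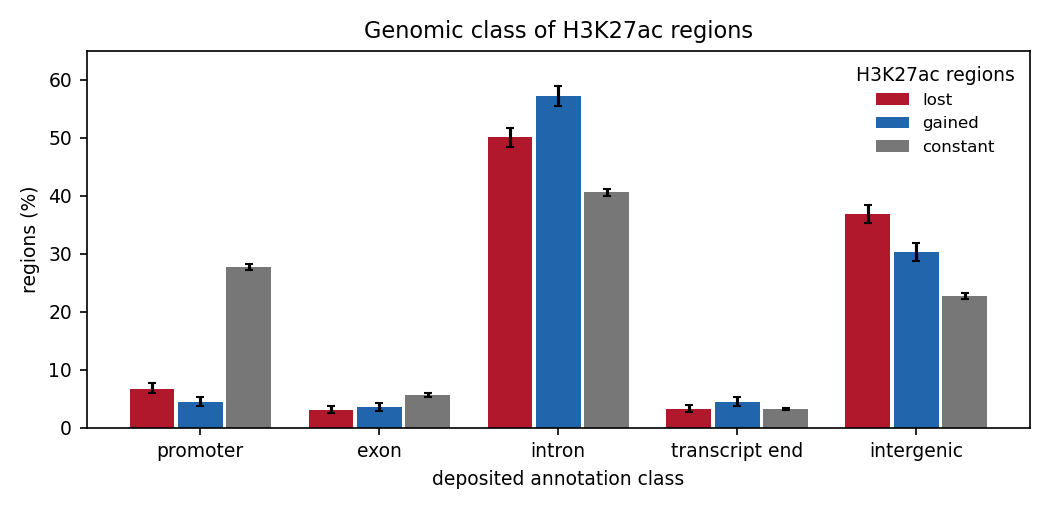
Share of lost (red, n = 3599), gained (blue, n = 3094) and constant (grey, n = 24356) H3K27ac regions in each class of the deposited annotation (vertical axis, %); bars carry 95% Wilson intervals. Promoters were 6.78% of lost and 27.7% of constant regions, and intergenic sites 36.8% of lost and 22.8% of constant regions.

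Lost regions often had acetylated neighbours that stayed. A constant region lay within 1 kb of 590 of them (16.4%) and within 5 kb of 1222 (34.0%), and the median gap was 12 kb. Gained regions were alike, with 15.5% and 35.6%. Another lost region lay within 5 kb of 932 (25.9%). A gained region lay within 5 kb of 35 (0.972%), and the median gap from a lost to a gained region was 259.6 kb. Of the 244 promoter-class lost regions, 80 lay within 1 kb of a constant region.

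SMAD2/3 peaks were rare at lost regions, also with activin. Counting the peaks of each library on their own, 3 of the 3599 regions had a SMAD2/3 peak in vehicle library 1 (0.0834%), 0 in vehicle library 2 (upper Wilson bound 0.107%), 20 in activin library 1 (0.556%) and 13 in activin library 2 (0.361%). The vehicle mean was 0.0417% ± 0.0589 (SD, n = 2) and the activin mean 0.458% ± 0.138 (SD, n = 2), and both activin values lay above both vehicle values (difference 0.417 percentage points, exact two-sided permutation p = 0.33). That is the smallest p that 6 labellings of 4 libraries can give, and it was the same for each of the 6 values tested here, also after Benjamini-Hochberg adjustment (0.33). The activin SMAD2/3 lists were longer (7784 and 5970 peaks against 605 and 144). With all 4 cut to the length of the shortest, the difference turned to -0.0139 (exact permutation p = 1.0). The means were then 0.0139% with vehicle and 0 with activin, so this sign rests on values at the floor. With full lists, the difference was 0.742 without H3K27ac activin library 1, and 1.20 with H3K27ac peaks joined up to 500 bp apart. Among lost regions with a vehicle −log10 q of at least 2 and 5 it was 0.655 and 3.46. In gained regions the share was 0.226% and 0.0970% with vehicle, against 18.5% and 14.1% with activin, and in constant regions it was 1.97% and 0.456%, against 15.9% and 12.8%.

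In what follows, overlapping peaks were joined over the 4 SMAD2/3 libraries, and likewise over the 4 FOXL2 libraries. Such a joined region may touch a lost region where the peak of a given library in it does not. A joined SMAD2/3 region with peaks in both activin libraries touched 12 lost regions (0.33%, 0.191 to 0.582), 470 gained regions (15.2%, 14.0 to 16.5) and 2913 constant regions (12%, 11.6 to 12.4). In 7 of the 12 lost regions the single peaks of both activin libraries reached the region. The median width was 615 bp for gained and 561 bp for lost regions, and the part of width and strength in these shares was not tested. The nearest SMAD2/3 region of both activin libraries was a median of 109.2 kb from a lost region, 14.7 kb from a gained and 73.0 kb from a constant one. The share of lost regions with SMAD2/3 was 0.590% without H3K27ac activin library 1, 0.852% when H3K27ac peaks up to 500 bp apart were joined, 3.14% among the 159 regions with a −log10 q of 5 or more in both vehicle libraries, and 0.0556% when the centre of the SMAD2/3 region had to lie inside the lost region.

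**Figure D3:**
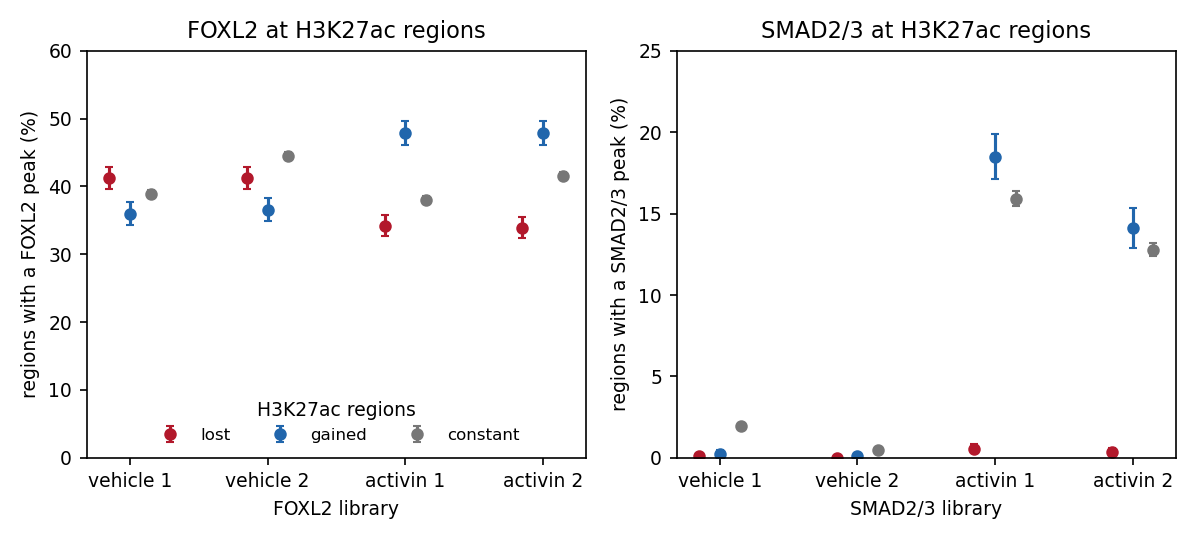
Share of H3K27ac regions (vertical axes, %) with a FOXL2 peak (left) or SMAD2/3 peak (right) in each library of that antibody, for lost (red, n = 3599), gained (blue, n = 3094) and constant (grey, n = 24356) regions, with 95% Wilson intervals. FOXL2 stood at 41.2% and 41.2% of lost regions with vehicle, then 34.2% and 33.9% with activin, while SMAD2/3 stayed under 0.6% there in every library.

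All 12 lost regions with SMAD2/3 in both activin libraries also had a FOXL2 peak in at least 1 library. So did 421 of the 470 gained and 2682 of the 2913 constant regions with SMAD2/3 in both activin libraries. Of these 12 lost regions, 2 lay in introns of Macrod2. On chromosome 5, 2 neighbouring ones (chr5:46635200-46636547 and chr5:46636998-46638193, intergenic) shared a FOXL2 region and a SMAD2/3 region. The others lay in introns of Pex5l, an auxiliary subunit of HCN ion channels, and of Pcsk5, a proprotein convertase, in an exon of Svip, at the transcript end of Lgalsl, nearest Vwc2, a secreted antagonist of bone morphogenetic proteins, and nearest Gm25699, Gm37400 and Gm23674. FOXL2 was strong at several of them. FOXL2 strength is given here as a percentile by −log10 q among the 58444 FOXL2 regions with a peak in all 4 FOXL2 libraries, a set of the same size in each library, with 100 for the strongest. At Svip the percentile was between 99.9 and the top of the scale in each library, among the very strongest FOXL2 sites. At the Vwc2 site it was 99.8 and 99.8 with vehicle, then 99.2 and 99.1 with activin.

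FOXL2 peaks stood at fewer lost regions with activin than with vehicle. They were called at 1482 (41.2%) and 1483 (41.2%) lost regions in the 2 vehicle libraries and at 1231 (34.2%) and 1219 (33.9%) in the 2 activin libraries, although the activin FOXL2 lists were the longer ones. The means were 41.2% ± 0.0196 and 34.0% ± 0.236 (SD, n = 2 each), a difference of -7.15 percentage points, which exceeded the spread between replicates (exact two-sided permutation p = 0.33, the smallest possible). The difference was -4.57 without H3K27ac vehicle library 1, and -13.8 among lost regions with a vehicle −log10 q of at least 5. At gained regions the shares went the other way, from 36.0% and 36.6% to 47.9% and 47.9%. At constant regions they were 38.9% and 44.5% with vehicle, then 38% and 41.5%, and these ranges overlapped. FOXL2 peaks were not used to choose the lost regions, but library names in the labels carry the same letter across antibodies, so the FOXL2 and H3K27ac libraries of a letter may share chromatin, which the labels do not state.

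The share at lost minus the share at constant regions removes what a library has at both. With vehicle it was 2.28 and -3.26 percentage points, with activin -3.75 and -7.63 (difference -5.20, exact two-sided permutation p = 0.33). The groups did not overlap, but the gap between vehicle library 2 and activin library 1 was small. The difference was -2.44 without FOXL2 vehicle library 1, -7.97 without vehicle library 2 and -3.26 without activin library 2. Without H3K27ac vehicle library 1 it was -2.83, without H3K27ac vehicle library 2 -3.35, and among lost regions with a vehicle −log10 q of at least 5 it was -11.9. The groups overlapped (exact two-sided permutation p = 0.67) without either H3K27ac vehicle library or H3K27ac activin library 1, and with the lists cut to the shortest. Without FOXL2 vehicle library 1, or FOXL2 activin library 1 or 2, the groups did not overlap. The exact permutation p was also 0.67 there, with only 3 libraries to relabel.

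By presence, 1708 lost regions (47.5%) had a FOXL2 peak in any library and 1891 (52.5%) in none. A joined FOXL2 region with peaks in all 4 libraries touched 1283 (35.6%), one with peaks in both vehicle and neither activin library touched 125, and one with peaks in both activin and neither vehicle library touched 18. Counted over FOXL2 regions, 121 of the 1849 that touched a lost region were vehicle-only (6.54%, 5.50 to 7.76), against 3.22% of all 124781 FOXL2 regions, 4.44% of those at constant and 0.452% of those at gained regions. Activin-only FOXL2 regions were 18 of the 1849 (0.973%, 0.617 to 1.53), against 8.95% of all, 4.82% at constant and 13.2% at gained regions. Those present in all 4 libraries were 1297 (70.1%), against 46.8% of all, 53.1% at constant and 67.9% at gained regions. When the centre of the FOXL2 region had to lie inside the lost region, 23.9% of lost regions had FOXL2.

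Where FOXL2 was present throughout, it ranked lower with activin at lost regions. The 1297 FOXL2 regions of all 4 libraries that overlapped a lost region had median percentiles of 75.4 and 76.3 with vehicle, then 61.7 and 62.3 with activin. The means were 75.8 ± 0.657 and 62.0 ± 0.425 (SD, n = 2 each), a difference of -13.8 percentile points (exact two-sided permutation p = 0.33, the smallest possible). At the 1203 in gained regions the medians were 64.8 and 66.7 with vehicle, then 83.0 and 84.0 with activin. At the 10545 in constant regions they were 54.2 and 60.6, then 49.5 and 53.0. The 41266 outside any H3K27ac region had 46.7 and 44.5, then 47.6 and 46.6. A percentile is relative, so a lower one can come from a weaker site or from other sites that became stronger.

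Against constant regions, FOXL2 at lost regions stood 21.2 and 15.7 percentile points higher with vehicle, and 12.2 and 9.26 higher with activin, a difference of -7.67 (exact two-sided permutation p = 0.33). It was -4.57 without FOXL2 vehicle library 1, and -13.2 among lost regions with a vehicle −log10 q of at least 5. Against gained regions, FOXL2 at lost regions stood 10.5 and 9.65 points higher with vehicle and 21.3 and 21.7 points lower with activin, a difference of -31.6 (exact two-sided permutation p = 0.33). These last 2 comparisons were added after the data were seen. Among single FOXL2 regions at lost regions, 856 of 1297 (66.0%, 63.4 to 68.5) ranked lower with activin, in either library, than in either vehicle library, against 33.1% of all FOXL2 regions present throughout, 41.8% of those at constant and 7.73% of those at gained regions. Those ranking higher in both activin libraries were 100 (7.71%), against 26.1% of all and 67.0% at gained regions.

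**Figure D4:**
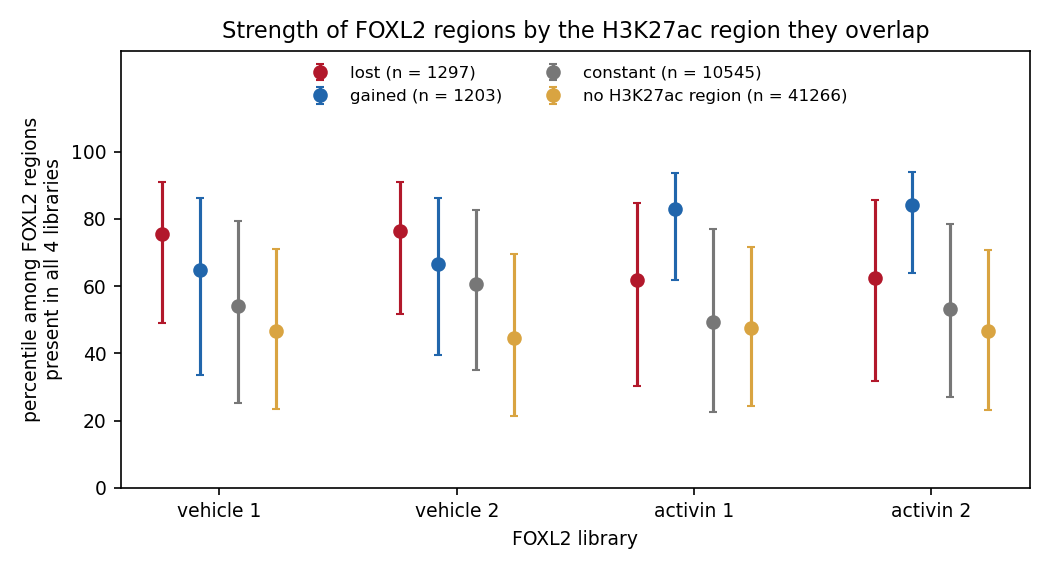
Percentile by −log10 q (vertical axis) of FOXL2 regions present in all 4 FOXL2 libraries, in each library, by the H3K27ac region they overlapped; points are medians and bars run from the lower to the upper quartile over regions. Medians at lost regions (red) were 75.4 and 76.3, then 61.7 and 62.3, and those at gained regions (blue) 64.8 and 66.7, then 83.0 and 84.0.

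FOXL2 was more frequent at stronger lost regions, which were also wider. Ordered by mean percentile within the 2 vehicle H3K27ac lists and cut into 4 equal parts, 34.0% of the weakest (31.0 to 37.2), 38.1% and 43.3% of the middle parts and 49.2% of the strongest (46.0 to 52.5) had FOXL2 in both vehicle libraries. The median widths of these parts were 518, 529.5, 558 and 709.5 bp, and the part of width in the FOXL2 share was not tested. FOXL2 regions that ranked lower in both activin libraries were 56.7% of those at the weakest regions and 76.8% at the strongest. The number with SMAD2/3 in both activin libraries was 1, 1, 3 and 7. By position, FOXL2 stood in both vehicle libraries at 25.9% (22.6 to 29.6) of lost regions within 1 kb of a constant region, at 43.3% of those 1 to 50 kb away and at 46.4% (43.0 to 49.9) of those farther. It stood there at 17.2% (13.0 to 22.4) of promoter-class, 37.8% of intergenic and 46.1% of intronic lost regions.

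The strongest lost region lay in an intron of Mta3, which encodes a subunit of the NuRD corepressor complex that includes histone deacetylases. At chr17:83768353-83769531 its −log10 q was 21.0 and 13.8 and its fold enrichment 6.40 and 4.89 in the vehicle libraries, and a constant region began 0.329 kb away. Its FOXL2 percentile was 81.0 and 88.5 with vehicle, then 52.1 and 65.1 with activin, so the groups did not overlap. Over all lost regions, 35.6% had a FOXL2 region present throughout. The 12 strongest were mostly wider than the 561 bp median (up to 5405 bp), and the part of width was not tested. Of these 12, 10 had such a FOXL2 region (of several, the one with the highest mean percentile was taken). In 7 of these 10, against 66.0% of FOXL2 regions at all lost regions, both activin percentiles lay below both vehicle ones. A region nearest Rnls, the renalase gene, at chr19:33324887-33328759 had 95.3 and 93.7 with vehicle, then 80.5 and 77.2 with activin. One in an intron of Epb41l1, which links the membrane to the cytoskeleton, had 87.7 and 93.7, then 55.6 and 72.2. One in an intron of Brinp3, a neural gene, at chr1:146699508-146701581 had 49.4 and 28.5, then 3.8 and 4.9. The site 55.2 kb from Tmem64 had 43.8 and 20.9, then 12.6 and 8.89. The region nearest the zinc finger gene Rreb1, at chr13:37968611-37969701 with −log10 q of 11.5 and 8.60, had no FOXL2 peak.

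Macrod2, which encodes an enzyme that removes ADP-ribose from proteins, held 4 of those 12 strongest regions. Its body of 1998 kb held 14 lost, 2 gained and 6 constant regions. In 1 window of 1 Mb, chr2:141000001-142000000, 13 of 22 H3K27ac regions were lost (59.1%) and 0 were gained, and all 13 lay in Macrod2 within 496.6 kb. Of the 8 FOXL2 regions present throughout in these 13, 4 ranked lower in both activin libraries and 1 higher in both, against 66.0% and 7.71% over all lost regions. The widest of all lost regions, chr2:141420954-141426358 (5405 bp), had a −log10 q of 13.0 and 13.3 and a SMAD2/3 peak in vehicle library 1 and both activin libraries. It overlapped 2 FOXL2 regions present throughout. The stronger had percentiles of 96.2 and 94.1 with vehicle, then 95.3 and 95.6 with activin, which overlapped. The SMAD2/3 peaks lay in the other. Its FOXL2 −log10 q (not a percentile) was 133.6 and 104.4 with vehicle, then 71.3 and 53.0 with activin. The region at chr2:141525685-141527730 was touched by the SMAD2/3 peaks of vehicle library 1 and both activin libraries. It too overlapped 2 FOXL2 regions present throughout. The one in which the SMAD2/3 peaks lay had percentiles of 89.0 and 72.8 with vehicle, then 82.9 and 72.9 with activin. The other had 79.4 and 87.9 with vehicle, then 93.9 and 92.1 with activin.

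**Figure D5:**
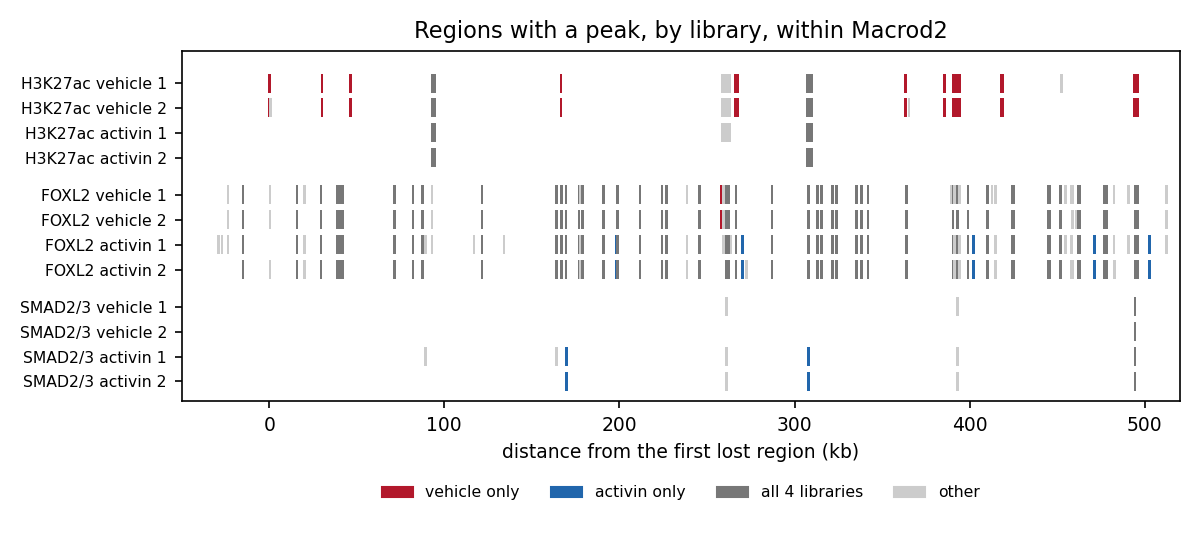
Regions with a peak in each of the 12 libraries (rows) along the part of Macrod2 that held 13 lost H3K27ac regions; the horizontal axis is the distance in kb from the first of them, colours give the pattern over the 4 libraries of that antibody, and narrow regions are drawn at least 1.5 kb wide. The lost regions (red, vehicle rows only) are spread over 496.6 kb, and 7 of the 13 overlap a FOXL2 region. FOXL2 regions there mostly stay in all 4 libraries (dark grey).

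In the next windows by count a smaller share of the H3K27ac regions was lost. The window chr1:14000001-15000000 held 13 lost of 59 regions, 5 of them in Eya1, a transcription cofactor with phosphatase activity. The window chr1:66000001-67000000 held 12 of 38, with 10 in Map2, which encodes a neuronal microtubule protein, and these 12 spanned 310.1 kb. Of the 10 FOXL2 regions present throughout at these, 7 ranked lower in both activin libraries and 0 higher in both. Over all lost regions the shares were 66.0% and 7.71%, so the 7 of 10 was near the usual share. The window chr1:32000001-33000000 also held 12, of 48, with 8 in Khdrbs2, an RNA-binding protein gene. Of 2235 windows of 1 Mb with an H3K27ac region, 1362 held a lost one and 22 held at least 9. Most lost regions stood alone: 2424 had no lost region as the next H3K27ac region on either side. The longest run of neighbours was 6, at chr18:15921215-15935186 over 14.0 kb. By chromosome, leaving out Y with 0 lost of 4 regions, the lost share ran from 4.45% on chromosome 11 to 9.07% on chromosome 18.

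By nearest start, 1391 of 11378 protein-coding genes (12.2%) had at least 1 lost region, 307 had at least 2 and 82 at least 3. A constant region as well was found for 1028 of the 1391, and a gained one for 178. Cntn4, a contactin of neural cell adhesion, had the most, with 8 lost, 3 gained and 11 constant regions. Fam135b, Rnls, Opcml (an adhesion molecule), Foxp2 (a forkhead factor) and Prelid2 had 7 each. Tox3 and Smyd3 (a lysine methyltransferase) had 6, and Unc5d (a netrin receptor) and Scaper had 5. No lost region of these 10 genes had SMAD2/3 in both activin libraries, and only 0.33% of all lost regions did. Fam135b and Rnls had 1 constant region each, while Prelid2 had 19. The gene body spans 1023 kb at Cntn4 and 1135 kb at Opcml, and the counts are not scaled by length.

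At promoters, strong lost regions taken by the naming rule belonged to Rogdi, Slc22a30, Lingo1 (a neural membrane receptor), Fitm2 (a lipid droplet protein), Urb1 (ribosome assembly), Dut (a nucleotide hydrolase) and Eif1ax (a translation initiation factor). Their −log10 q lay between 4.27 and 9.81 over both vehicle libraries. None had a SMAD2/3 peak, and only 0.750% of all lost regions did. A FOXL2 peak stood at 1, Fitm2, in vehicle library 2. Of all promoter-class lost regions, 17.2% had FOXL2 in both vehicle libraries. At Rogdi, Fitm2, Dut and Eif1ax a constant region lay between 0.306 and 0.668 kb away, and at Slc22a30, Lingo1 and Urb1 none lay within 5 kb. The promoter-class region at Uchl4, chr9:64234580-64235891, had −log10 q of 3.37 and 3.33, and the FOXL2 region over the window printed above had percentiles of 30.6 and 38 with vehicle, then 15.2 and 20.0 with activin.

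FOXL2 regions called with vehicle only touched 125 lost regions (3.47%) and 3.45% of constant regions. Of the 125 lost ones, 54 were in the strongest of the 4 parts by vehicle H3K27ac rank. The strongest such regions were near Gm5689 (chr18:42161897-42164162), in introns of Rbfox1, an RNA splicing factor (chr16:7310147-7311604), and of Mosmo (chr7:120685396-120688596), in an intron of Fam135b (chr15:71675083-71676065), beside n-R5s215 within Sp100 (chr1:85672749-85673634) and near Gm25136 (chr6:135629974-135631656). The region near Gm5689 also overlapped 2 FOXL2 regions present throughout. The stronger had percentiles of 77.6 and 88.0 with vehicle, then 55.3 and 59.1 with activin. At Rbfox1 a second FOXL2 region was present throughout and had percentiles of 82.7 and 89.2 with vehicle, then 46.1 and 49.6 with activin. At Fam135b the H3K27ac −log10 q was 9.44 and 6.28 with vehicle.

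Shares of lost regions at genes of gonadotropes and of the activin pathway were near the 6.79% over all H3K27ac regions. Gonadotrope identity genes had 4 of 55 regions lost (7.27%): one at -35.5 kb from Gata2, a pair before Neurod1 and one before Nr0b1, which encodes a repressor of steroidogenic factor. No lost region was nearest to Cga, Lhb, Fshb, Gnrhr or Foxl2. The Neurod1 site at chr2:79495969-79497621 had −log10 q of 1.86 and 1.89 and FOXL2 percentiles of 70.5 and 68.0 with vehicle, then 93.9 and 92.8 with activin, opposite to the median. The other Neurod1 site, chr2:79511925-79512423, had a FOXL2 peak with vehicle only. Genes of other pituitary hormones and lineages had 1 of 17 lost, at -60.2 kb from the start of Prl, the prolactin gene.

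Receptors and SMADs had 3 of 53 lost (5.66%), all in introns of Bmpr1b, a type I receptor for bone morphogenetic proteins, which also had 2 gained regions. Feedback inhibitors had 2 of 33 lost (6.06%): one at chr10:79780572-79781202 within Fstl3, an activin-binding protein, with −log10 q of 2.46 and 4.82 and no FOXL2, and one in an intron of Smurf2, a ubiquitin ligase for SMAD proteins. Activin and inhibin subunit genes had 0 of 15 lost, and immediate early genes 0 of 35. Id genes and bone morphogenetic protein ligands had 2 of 18 (11.1%). One lay at the promoter of Id4, an inhibitor of helix-loop-helix factors, at chr13:48261175-48261441 with −log10 q of 2.45 and 2.64, and the other near Id3.

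The NuRD genes had 7 of 57 regions lost (12.3%) and 0 gained, with 3 at Mta3, 3 at Rbbp7 and 1 at Mbd2. Rbbp7 encodes a histone-binding subunit and Mbd2 a methyl-DNA-binding one. This list was drawn up with Mta3 already known as a strong member, so its count supports nothing. Besides the strongest site, a second Mta3 site, chr17:83709947-83711474, had FOXL2 percentiles of 42.9 and 74.7 with vehicle, then 12.4 and 19.3 with activin. Histone acetylation enzymes had 3 of 73 (4.11%), all at Kat6b, an acetyltransferase. At Kat6b, chr14:21531303-21532676 had FOXL2 percentiles of 88.2 and 89.6, then 70.8 and 63.2. Nuclear receptors had 7 of 113 (6.19%), a pair each at Rora and Thrb and 1 each at Nr3c1, Rorb and Ppard. The glucocorticoid receptor gene Nr3c1 also had 1 gained region. GnRH and calcium signalling genes had 3 of 89 (3.37%), at Prkcb, Prkce and Cacna1h. Adhesion and axon guidance genes had 9 of 116 (7.76%), with 5 at Unc5d, 2 at Epha5 and 1 each at Plxna2 and Slit3.

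Over these lists, 41 lost regions at 25 genes were counted, and none had a SMAD2/3 peak in any library. Over all lost regions 0.750% had one, so none among 41 was near the usual share. A FOXL2 peak stood at 19 of the 41, near the 47.5% of all lost regions. Of 14 with a FOXL2 region present throughout, 8 ranked lower in both activin libraries and 4 higher in both. Without the NuRD genes these were 5 and 4 of 10. Among FOXL2 regions present throughout, 66.0% of those at lost regions ranked lower and 7.71% higher. The shares over all of them were 33.1% and 26.1%. Epha5, an ephrin receptor gene, had 50.1 and 57.3 with vehicle, then 13.7 and 5.41, at chr5:84293260-84293615, whereas a Bmpr1b site had 89.2 and 75.3 with vehicle, then 89.5 and 90.2 with activin.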

How the data were processed

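ChIP-seq peak lists of 12 libraries were used, 1 list and 1 annotation table each. Bowtie2, MACS2 and HOMER and the build GRCm38/mm10 are named in the submitters' processing notes, without versions; the use of the control is not given in the sources used here. The peak names show 1 library per list. The deposited lists give each peak a score, a fold enrichment (a linear ratio), and −log10 of p and q, as the authors' caller wrote them; the smallest H3K27ac −log10 q was 1.00, a q of 0.1. The deposited tables give class, nearest start and distance in bp, per the file headers.

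Peaks of each antibody were joined at 1 bp overlap with Python 3.11.15, numpy 2.4.6 and pandas 2.3.3. The joining and the test were tested on simulated lists. One value per library entered an exact permutation test (two-sided, 6 labellings). Depth is unknown, so only presence, within-list values and percentiles in 1 common FOXL2 set were used. RefSeq GRCm38.p6 tables gave gene bodies and promoter windows.

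Members, lists and tests were chosen with earlier results of these data known. Named were the 12 strongest, 8 strongest promoter-class (1 of them is not reported here), 6 widest, 6 strongest FOXL2 vehicle-only and all 12 SMAD2/3-bound regions (the rule asked for 6 of these), the 10 genes with most lost regions, all listed genes with one, the densest windows and the values at the edge of the rule. The promoters printed in full, the Uchl4 site among them, were chosen after their values were seen.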

Additional observations from a re-analysis of the deposited data

How the results depend on the processing

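The number of lost regions was 1985 with a vehicle −log10 q of at least 2 and 159 with at least 5, which follows from fewer members, and 4249 to 7581 with 1 H3K27ac library left out. The promoter share of 6.78% became 8.81% at −log10 q of 5, 5.71% with peaks joined up to 500 bp apart, and 6.14 to 8.94% with a library left out. The share within 5 kb of a constant region, 34.0%, became 30.7% at 2, 23.3% at 5, 25.6% with joined peaks and 36.6 to 41.0% with a library left out. The share with any FOXL2, 47.5%, became 51.6%, 65.4%, 53.9% and 37.0 to 46.3% in the same order, and 23.9% by centre. The SMAD2/3 share, 0.33%, became 3.14% at 5, 0.852% with joined peaks, 0.0556% by centre and 0.251 to 0.590% with a library left out. Where not evident from the construction, the cause was not tested.

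The 6 tested differences kept their direction in 80 of 81 settings. These include, for each difference, the block by replicate number, which cannot change the direction. The exception was SMAD2/3 with all lists cut to the length of the shortest, which gave -0.0139 percentage points (exact permutation p = 1.0) in place of 0.417. The means there were at the floor, 0.0139% with vehicle and 0 with activin. With 1 factor or H3K27ac library left out, the difference in FOXL2 share ran from -7.32 to -4.57, in share minus constant from -7.97 to -2.44, in FOXL2 percentile from -13.7 to -11.1, in percentile minus constant from -9.27 to -4.57, in percentile minus gained from -31.5 to -28.8, and in SMAD2/3 share from 0.320 to 0.742. With the replicate number as a block, the differences are the same by construction (FOXL2 percentile -13.8) and the smallest exact sign-flip p over 2 pairs is 0.5; deviations of same-numbered FOXL2 libraries at lost regions correlated at 0.157 over 1297 regions, and the labels state no pairing. Leaving out an H3K27ac library in the tested values, and the −log10 q of 5 there, were added after seeing the data.

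Depth limits these results: reads per library are unknown, the median lost peak had a vehicle −log10 q of 2.62 and 2.52 in lists that begin at 1.00, and 2 against 2 libraries cannot give a p under 0.33.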
